A study of Mus musculus with 8 samples.

Results

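The cardiac T-box factors *Tbx1*, *Tbx2*, *Tbx3*, *Tbx5*, *Tbx18* and *Tbx20* were examined in the ventricles of E15.5 mouse embryos. They were chosen by name, as the 6 T-box genes known for roles in the heart, and their symbols were matched to Ensembl identifiers among the 53465 genes listed. Of the 6, 5 passed the filter on low counts and were tested together with 15580 genes in all, and *Tbx1* did not pass it.

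Poly(A) RNA was sequenced in 2 genotypes with 4 libraries each, and the labels give 1 ventricle for each replicate. *Nrg1GOF* embryos carried a *Nrg1* transgene at the Rosa26 locus together with the *Nkx2.5-Cre* driver, so that neuregulin-1, which signals from cell to cell through ErbB receptors, was overproduced by cells with *Nkx2.5*-driven Cre and their descendants, in and outside the ventricles. The sample label spells the driver Nkx5.5-Cre, whereas the series title and the study name *Nkx2.5-Cre*, which is used here. Control embryos were wild type (WT) of the same age, and the labels used here name no Cre or transgene in them, so the effect of the driver alone cannot be told apart from that of *Nrg1*.

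*Nrg1* itself lay between 59.7 and 63.7 CPM in *Nrg1GOF* and between 3.07 and 4.47 CPM in WT, where CPM stands for counts-per-million of the scaled library size, and the genotype labels therefore matched the libraries. Library totals ran from 18754259 to 26786039 counts in 7 libraries, whereas *Nrg1GOF* library 4 held 8038641. WT libraries 1 and 2 lay apart from WT libraries 3 and 4 for many genes, *Tbx20* among them, and the labels give no batch. For the tested T-box genes the values with each WT pair as the control are also given. The summed level of 4 ventricular myocardial markers was 16367 to 21217 CPM in *Nrg1GOF* and 24108 to 25394 CPM in WT, high in every library and lower in *Nrg1GOF* without overlap. That of 6 atrial markers was 1601 to 1774 CPM in *Nrg1GOF* and 1001 to 1120 CPM in WT, so atrial transcripts were present throughout. *Myl4*, named after its values were seen, made up most of this sum, with means of 1312 and 862 CPM, and 3 of the 6 markers were called as higher. By the mean log2 level of the 6 markers, given further on, the genotypes overlapped.

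T-box factors share a DNA-binding domain and act at a short element with the core AGGTGTGA. In the forming heart, *Tbx5* works with *Nkx2-5* and *Gata4* to switch on genes of the working chambers, and *Tbx20* is needed for chamber growth and keeps *Tbx2* out of the chambers. *Tbx2* and *Tbx3* are repressors that hold the chamber programme down in the atrioventricular canal and, for *Tbx3*, in the conduction system. *Tbx18* marks the epicardium, the sinus horns and mural cells, and *Tbx1* acts in pharyngeal progenitors of the outflow tract.

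The element through which T-box factors act is shown first in the promoter of *Nppa*, a chamber gene on which activating and repressing T-box factors compete, because *Nppa* changed the most among the chamber targets described below. The promoters of *Tbx18* and *Tbx20* are given for comparison. Each run is the 250 bases before the annotated start, read 5′ to 3′ on the strand of the gene from the RefSeq table for GRCm38.p6, with matches in capitals. The *Nppa* window is chr4:148000472-148000721 on the plus strand, the *Tbx18* window is chr9:87731261-87731510 on the minus strand, and the *Tbx20* window is chr9:24774304-24774553 on the minus strand.
Nppa: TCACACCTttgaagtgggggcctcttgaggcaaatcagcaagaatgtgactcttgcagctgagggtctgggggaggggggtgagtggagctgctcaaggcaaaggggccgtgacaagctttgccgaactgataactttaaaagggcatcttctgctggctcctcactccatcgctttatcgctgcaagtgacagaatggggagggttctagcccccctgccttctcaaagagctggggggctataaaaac
Tbx18: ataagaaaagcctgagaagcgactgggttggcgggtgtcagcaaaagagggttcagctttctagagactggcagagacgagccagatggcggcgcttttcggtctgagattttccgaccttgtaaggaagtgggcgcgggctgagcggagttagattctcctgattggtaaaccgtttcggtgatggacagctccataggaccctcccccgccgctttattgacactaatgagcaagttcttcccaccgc
Tbx20: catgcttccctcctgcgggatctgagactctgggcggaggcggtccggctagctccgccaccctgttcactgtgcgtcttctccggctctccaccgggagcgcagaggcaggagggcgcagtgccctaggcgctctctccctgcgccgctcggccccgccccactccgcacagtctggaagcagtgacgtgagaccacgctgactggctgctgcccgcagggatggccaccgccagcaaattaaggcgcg

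Both strands were searched for AGGTGTGA (TCACACCT on the other strand) and for the looser AGGTGTNA, which includes it. The *Nppa* window opened with TCACACCT, 250 bases before the start, on the strand opposite to the gene. The *Tbx18* and *Tbx20* windows held neither motif, which says only that these letters are absent from these windows. Among all 32851 mouse promoters of this length, 368 (1.12%) held AGGTGTGA and 881 (2.682%) held AGGTGTNA. Promoters were found for 3 of the 6 T-box genes, and of their 4 windows 1 held AGGTGTNA, that of *Tbx1*, at 76 bases before the second listed start. Of 12 windows from 10 of the 12 chamber targets, 1 held AGGTGTGA, and it was that of *Nppa*.

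The levels of the 6 genes spanned a wide range. Compared per kilobase of exon, *Tbx20* was the most abundant in WT, at 46.0 CPM per kilobase, followed by *Tbx18* (12.4), *Tbx5* (10.5), *Tbx2* (3.63), *Tbx3* (1.46) and *Tbx1* (0.183). No neighbours in this order overlapped between libraries of WT. *Tbx18* ran from 11.4 to 13.2 and *Tbx5* from 9.87 to 11.0 CPM per kilobase, but with the length of the longest transcript in place of all exons they overlapped, at 11.5 to 13.3 and 11.7 to 13.0. In *Nrg1GOF*, *Tbx5* was above *Tbx18* on both lengths. *Tbx5* ran from 11.9 to 15.8 and *Tbx18* from 8.56 to 11.0 CPM per kilobase of exon. *Tbx3*, at 2.06 to 3.85 CPM per kilobase of exon, overlapped *Tbx2*, at 3.59 to 5.45, in this genotype.

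**Figure D1:**
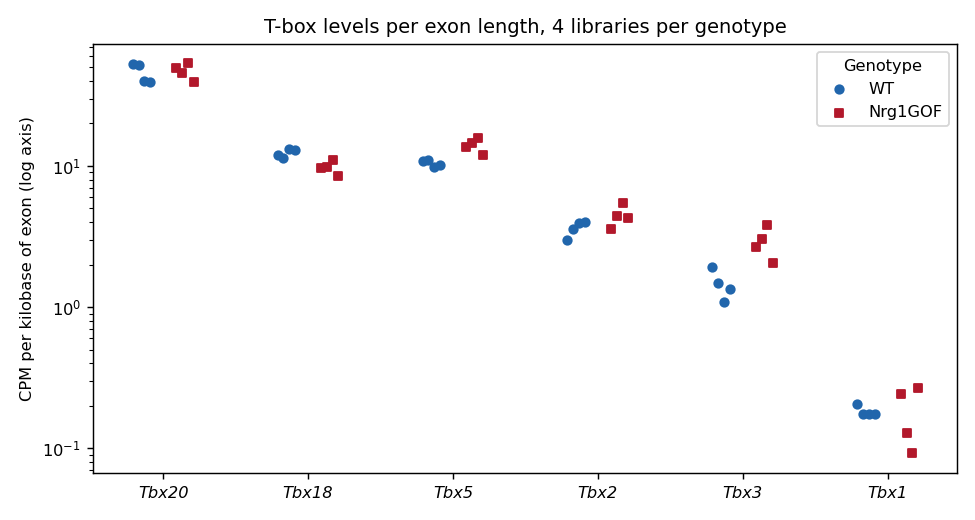
Levels of the 6 T-box genes in CPM per kilobase of exon on a log axis, one point per library, with WT as circles and *Nrg1GOF* as squares. *Tbx20* lies at 39.1 to 53.2 in all libraries, *Tbx18* lies above *Tbx5* in WT and below it in *Nrg1GOF*, and *Tbx1* stays under 0.3.

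*Tbx3* and *Tbx5* were higher in *Nrg1GOF*, *Tbx18* was lower, and *Tbx2* and *Tbx20* did not pass the test. Calls are adjusted p under 0.05 in edgeR's quasi-likelihood test, adjusted by Benjamini-Hochberg over all 15580 genes. In this comparison 28.7% of all genes tested were called, 15.9% as higher and 12.8% as lower, and 3 of the 5 tested members is to be read beside that share. At an adjusted p under 0.01, 2 of the 5 members passed, *Tbx3* and *Tbx5*, beside 16.3% of all genes, and with a log2 change of at least 1 required 1 passed, *Tbx3*, beside 4.65%. The median log2 fold change of all genes was -0.012. No label says whether libraries share a litter or a heart, so p-values measure only the spread between these 4 and 4 libraries, which may be technical.

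*Tbx5*, the activator of chamber genes (chr5:119832668-119885219, plus strand, GRCm38), stood at 64.1, 67.7, 74.1 and 55.6 CPM in *Nrg1GOF* libraries 1 to 4 and at 51.1, 51.3, 46.1 and 47.4 CPM in WT libraries 1 to 4. Every *Nrg1GOF* library was above every WT library, and the nearest were *Nrg1GOF* 4 and WT 2. The means were 65.4 ± 7.69 and 49.0 ± 2.63 CPM (SD, n = 4 each). The log2 fold change was 0.42 (1.34-fold) with an SE of 0.08, a 95% interval of 0.24 to 0.61 and an adjusted p of 0.00434 by the edgeR test. Leaving out any 1 library gave 0.36 to 0.50, and the WT pairs taken alone gave 0.36 (libraries 1 and 2) and 0.50 (libraries 3 and 4). With the level of atrial transcripts as a covariate, described below, it was 0.17 and the call was lost (adjusted p = 0.331 by edgeR).

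*Tbx20*, a factor of chamber growth and a regulator of *Tbx2* (chr9:24718138-24774303, minus strand), stood at 591, 545, 638 and 469 CPM in *Nrg1GOF* and at 630, 627, 476 and 472 CPM in WT. The groups overlapped fully, and the clearest division was within WT, where libraries 1 and 2 were above libraries 3 and 4. The means were 561 ± 72.0 and 551 ± 89.3 CPM (SD, n = 4 each), with a log2 fold change of 0.03, an SE of 0.12, a 95% interval of -0.25 to 0.30 and an adjusted p of 0.908 by the edgeR test. The sign depended on the control: WT libraries 1 and 2 alone gave -0.17 and WT libraries 3 and 4 alone gave 0.25, neither of them called.

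*Tbx3*, the repressor of the conduction system (chr5:119670669-119684724, plus strand), stood at 17.7, 20.2, 25.5 and 13.6 CPM in *Nrg1GOF* and at 12.6, 9.87, 7.24 and 8.97 CPM in WT. The groups did not overlap, but *Nrg1GOF* 4, whose value rests on 109 counts, lay close to WT 1. The means were 19.2 ± 4.97 and 9.68 ± 2.26 CPM (SD, n = 4 each). The log2 fold change of 1.01 (2.01-fold) was the highest among the members, with an SE of 0.21, a 95% interval of 0.55 to 1.47 and an adjusted p of 0.00517 by the edgeR test. It stayed between 0.85 and 1.17 when any 1 library was left out, and was 0.79 and 1.27 with WT libraries 1 and 2 or 3 and 4 as the control. With the atrial covariate it was 0.25 and the call was lost (adjusted p = 0.385 by edgeR).

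*Tbx3* and *Tbx5* are neighbours on chromosome 5, 147943 bases apart and on the same strand. The antisense gene *Tbx3os1* overlaps the start of *Tbx3* and held 0 to 19 counts per library, against 109 or more for *Tbx3*.

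*Tbx2*, the paralog of *Tbx3* and repressor of the atrioventricular canal (chr11:85832551-85841948, plus strand), stood at 13.0, 16.1, 19.8 and 15.6 CPM in *Nrg1GOF* and at 10.8, 13.0, 14.3 and 14.5 CPM in WT. Of the *Nrg1GOF* libraries, 3 were above every WT library, whereas *Nrg1GOF* 1 lay within the WT range. The means were 16.1 ± 2.77 and 13.2 ± 1.71 CPM (SD, n = 4 each), with a log2 fold change of 0.30, an SE of 0.14, a 95% interval of -0.02 to 0.61 and an adjusted p of 0.147 by the edgeR test. Without *Nrg1GOF* 3 the log2 fold change was 0.18, and with WT libraries 1 and 2 or 3 and 4 as the control it was 0.44 or 0.17. With the replicate number as a block *Tbx2* was called, at a log2 fold change of 0.29 (adjusted p = 0.0431 by edgeR). With the offset for GC content and transcript length the log2 fold change was 0.15 (adjusted p = 0.28 by edgeR). With offset and block together it was 0.15 (adjusted p = 0.226 by edgeR). On counts simulated from these libraries the test recovered 36.4% of genes changed by 0.5 on the log2 scale. Changes of that size or smaller could thus be missed. The simulation changed far fewer genes than were called here, so this rate need not hold for the data.

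*Tbx18*, the gene of the epicardium and mural cells (chr9:87702800-87731260, minus strand), stood at 45.6, 46.4, 52.0 and 40.4 CPM in *Nrg1GOF* and at 56.6, 53.9, 62.3 and 60.8 CPM in WT. Every *Nrg1GOF* library was below every WT library, with *Nrg1GOF* 3 and WT 2 the nearest. The means were 46.1 ± 4.74 and 58.4 ± 3.87 CPM (SD, n = 4 each). The log2 fold change was -0.33 (0.793-fold) with an SE of 0.08, a 95% interval of -0.51 to -0.16 and an adjusted p of 0.0109 by the edgeR test. Leaving out any 1 library gave -0.39 to -0.27. The call was lost with WT libraries 1 and 2 alone as the control (-0.25, adjusted p = 0.0935), with each WT pair summed to 1 library (-0.33, adjusted p = 0.0649), with scaling by 7 cardiomyocyte genes (-0.23, adjusted p = 0.201) and with the atrial covariate (-0.35, adjusted p = 0.158), all by edgeR.

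On the opposite strand, *D030062O11Rik* overlaps the start of *Tbx18* and held 2 to 23 counts per library. *Nt5e*, the nearest protein-coding gene above *Tbx18* on chromosome 9 and 595936 bases away, encodes an ecto-enzyme that makes adenosine. It was higher in *Nrg1GOF*, with a log2 fold change of 0.98 and an adjusted p of 0.00022 by the edgeR test. Apart from *Tbx3* and *Tbx5*, it is the only protein-coding neighbour of a member whose value is given here.

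*Tbx1*, the gene of pharyngeal progenitors (chr16:18580979-18590671, minus strand), held 10, 5, 4 and 4 counts in *Nrg1GOF* and 10, 6, 8 and 8 counts in WT, which is 0.454, 0.238, 0.171 and 0.5 CPM and 0.382, 0.327, 0.324 and 0.328 CPM. The groups overlapped. A level of 3 counts corresponds to 0.115 to 0.164 CPM in 7 libraries and to 0.375 CPM in *Nrg1GOF* 4, so *Tbx1* stood at 4 to 10 counts per library against a floor set at 3, and no difference was detectable at this depth. Such floors cover counting error only.

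**Figure D2:**
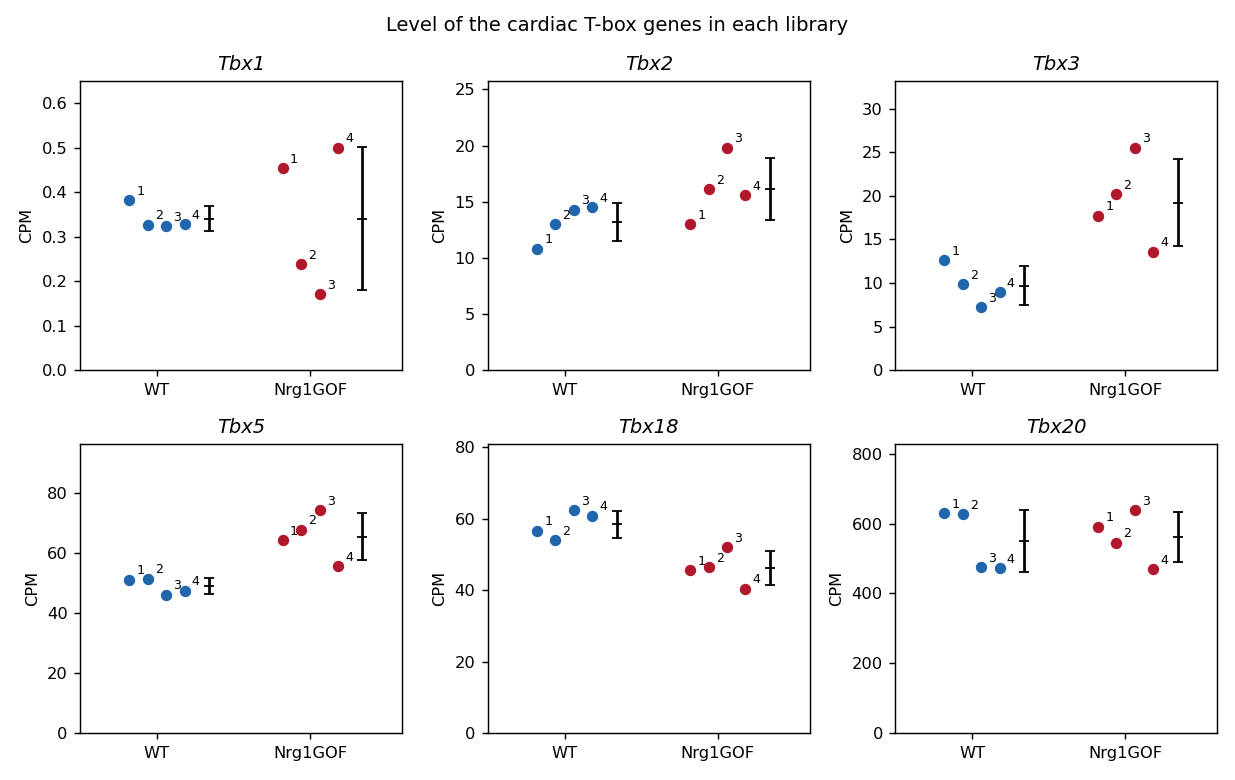
CPM of each T-box gene in the 4 WT and 4 *Nrg1GOF* libraries, numbered by replicate, with the mean and SD of each genotype as a bar at the right of its points. The genotypes do not overlap for *Tbx3*, *Tbx5* and *Tbx18* and overlap for *Tbx1*, *Tbx2* and *Tbx20*.

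Of the 5 tested members, 3 had genotypes that did not overlap, against 30.7% of all genes tested (16.6% with *Nrg1GOF* higher and 14.1% with it lower). In a bulk sample, fewer cells of a type and less RNA per cell cannot be told apart, and this holds for each of these differences.

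Ratios within a library do not depend on how libraries were scaled, and 5 pairs of T-box genes were compared on them by an exact permutation test over the 8 libraries. With 70 assignments the smallest possible two-sided p was 0.0286, and adjusted over the 5 pairs none passed 0.05. Even a pair at this smallest p could not pass unless several others were as low, so the adjusted test could hardly make a call. The log2 ratio of *Tbx20* to *Tbx5* was 3.21, 3.01, 3.11 and 3.08 in *Nrg1GOF* and 3.62, 3.61, 3.37 and 3.32 in WT, a difference of -0.38 without overlap (exact p = 0.0286, adjusted p = 0.0952). The log2 ratio of *Tbx2* to *Tbx3*, the paralogous repressors, was -0.44, -0.32, -0.37 and 0.20 in *Nrg1GOF* and -0.23, 0.39, 0.98 and 0.70 in WT. Here *Nrg1GOF* 4 lay above WT 1, and the difference was -0.69 (exact p = 0.0571, adjusted p = 0.0952).

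The log2 ratio of *Tbx3* to *Tbx5* differed by 0.57 (exact p = 0.0571, adjusted p = 0.0952), since WT 1, at -2.01, lay at the level of *Nrg1GOF* 4, at -2.02. *Tbx2* to *Tbx20* differed by 0.26 (exact p = 0.257, adjusted p = 0.321) and *Tbx2* to *Tbx5* by -0.12 (exact p = 0.486, adjusted p = 0.486). Both moved with single libraries: with 1 left out the first ran from 0.10, without WT 1, to 0.38, and the second from -0.23, without WT 1, to -0.03, without *Nrg1GOF* 1. The ratio of *Tbx5* to *Tbx18* was chosen after the values were seen and is given without a test. It was 0.49, 0.54, 0.51 and 0.46 on the log2 scale in *Nrg1GOF* and -0.15, -0.07, -0.43 and -0.36 in WT, so every *Nrg1GOF* ratio lay above every WT ratio.

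**Figure D3:**
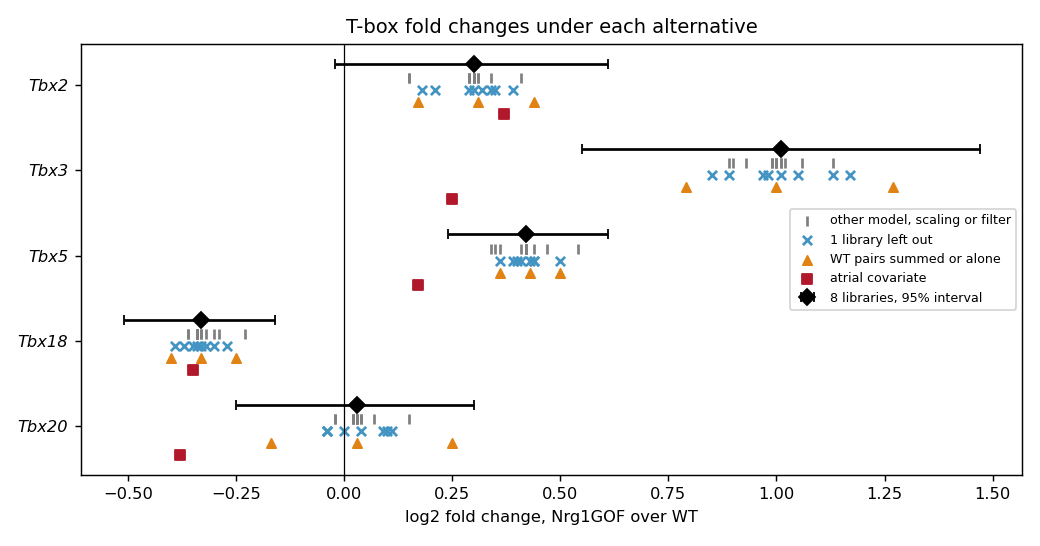
Log2 fold change of *Nrg1GOF* over WT for the 5 tested T-box genes with all 8 libraries (diamonds, bars are 95% intervals) and under each alternative (small marks by kind). *Tbx3*, *Tbx5* and *Tbx2* stay right of 0 and *Tbx18* left of it, whereas *Tbx20* lies on both sides. The squares of *Tbx3* and *Tbx5*, from the fit with an atrial covariate, lie nearer 0, at 0.25 and 0.17.

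Atrial transcripts moved with these results. The mean log2 CPM of the 6 atrial markers was 5.63, 5.81, 5.98 and 5.21 in *Nrg1GOF* libraries 1 to 4 and 5.24, 5.09, 4.28 and 4.73 in WT. *Nrg1GOF* 4 lay just under WT 1. By this mean *Nrg1GOF* 4 was the lowest of its group and WT 3 the lowest of WT, which also held for *Tbx3* and *Tbx5*. By the summed CPM of the same markers it was not so, since *Nrg1GOF* 4 was the highest library at 1774 CPM and WT 4 the lowest at 1001 CPM. *Tbx5* and *Tbx3* are both known to be expressed in atrial or canal tissue. With this mean as a covariate in the edgeR fit, no member was called (0 of 5, with 2 of 5 at an unadjusted p under 0.05, *Tbx18* and *Tbx20*), against 7.95% of all genes.

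The log2 fold changes of *Tbx3*, *Tbx5* and *Tbx18* under it are given above, *Tbx2* was at 0.37 (adjusted p = 0.424), and *Tbx20* turned to -0.38 (adjusted p = 0.0826). The covariate was itself higher in *Nrg1GOF* apart from a small overlap, so this fit cannot fully separate it from genotype. The call of *Tbx18* was lost with its log2 fold change nearly unchanged (-0.33 and -0.35) and a larger SE (0.08 and 0.14). Those of *Tbx3* and *Tbx5* fell, as given above. How much of each difference came with atrial or canal tissue in the samples was not tested.

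*Tbx3* marks the atrioventricular canal and the nodes, and genes of these regions were higher as well. The counts of called genes in this and the following lists are to be read beside the 15.9% of all genes called as higher and the 12.8% called as lower. Of 12 genes of the canal and its cushions, 9 were called as higher and 0 as lower by edgeR (11 at an unadjusted p under 0.05, all of them higher), with a median log2 fold change of 1.07 against -0.012 for all genes. *Hapln1*, which links the cushion matrix, had a log2 fold change of 1.94, which was 1.48 and 2.64 against WT libraries 1 and 2 or 3 and 4 alone. *Msx2*, a homeobox gene of the cushions, was at 1.39, *Has2*, the synthase of hyaluronan, at 1.35 and *Sox9*, of the cushion mesenchyme, at 1.21. The call of *Msx2* was lost with each WT pair summed (1.39, adjusted p = 0.0679) and with WT libraries 1 and 2 alone (1.13, adjusted p = 0.0918), both by edgeR.

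Of 14 tested genes of the sinus and atrioventricular node, 8 were called as higher and 0 as lower (11 at an unadjusted p under 0.05), with a median of 0.70. *Vsnl1*, a calcium sensor, had a log2 fold change of 1.98 (1.46 and 2.80 against the WT pairs) and *Shox2*, a factor of the sinus node, 1.88. *Cacna2d2*, a calcium channel subunit, was at 1.22 and *Hcn4*, the pacemaker channel, at 0.76 (0.47 and 1.12 against the WT pairs). The study also used *Hcn4* as a marker of trabecular myocardium. With the atrial covariate 1 of 12 canal genes was called, as higher, and of the 14 node genes 1 was called as higher and 1 as lower, against 7.95% of all genes. *Hapln1*, *Msx2*, *Has2*, *Sox9*, *Vsnl1*, *Shox2* and *Hcn4* were then no longer called.

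Many of these genes varied within each genotype as *Tbx3* did. WT 3 was the lowest WT library for 10 of 12 canal genes and 10 of 14 node genes, against 24.3% of all genes tested. *Nrg1GOF* 3 was the highest of its group for 10 of 12 and 10 of 14 (29.4% of all genes), and *Nrg1GOF* 4 the lowest for 9 of 12 and 11 of 14 (29.7%). This order was that of *Tbx3* itself, and among the other members *Tbx5* also held it. All of these held together in 7 of 12 canal genes, in 8 of 14 node genes and in 2.84% of all genes. They did not in *Sox9* and *Hcn4*, among others.

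**Figure D4:**
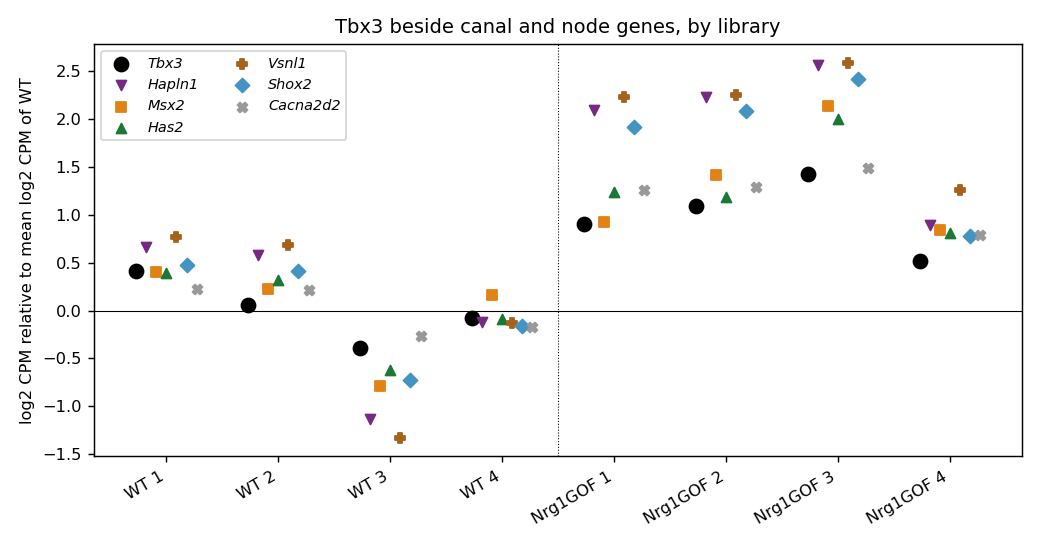
Log2 CPM of *Tbx3* and of the 3 called genes with the largest change in each of the canal list (*Hapln1*, *Msx2*, *Has2*) and the node list (*Vsnl1*, *Shox2*, *Cacna2d2*) in each library, relative to the WT mean of each gene. In these 7 genes WT 3 is the lowest WT library, *Nrg1GOF* 3 is the highest library and *Nrg1GOF* 4 is the lowest of its group, whereas 5 of 12 canal genes and 6 of 14 node genes do not hold this whole order.

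Genes upstream of *Tbx2* and *Tbx3* went in both directions. BMP signals induce these repressors and Hey factors keep them out of the chambers. Of 13 genes, 6 were called as higher and 3 as lower, with a median log2 fold change of 0.12. *Bmp2*, the canal ligand, was higher at 1.48 and *Smad6*, an inhibitor that BMP signalling induces, at 1.01. *Hey2*, the repressor of compact myocardium, fell by 1.82 on the log2 scale and the ligand gene *Bmp5* by 1.11. With the atrial covariate 3 were called as higher and 2 as lower, and *Bmp2* (0.40) was no longer called.

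Targets of T-box factors in the chamber myocardium also split. Of 12 genes, 5 were called as higher and 3 as lower, with a median of 0.20. *Nppa*, which encodes atrial natriuretic peptide and whose promoter holds the T-box element at its far end, ran from 3142 to 5523 CPM in *Nrg1GOF* and from 771 to 877 CPM in WT, so the groups were far apart. Its log2 fold change was 2.48 (5.58-fold), with an SE of 0.16 and an adjusted p of 9.92e-06 by the edgeR test. *Nppb*, the brain natriuretic peptide gene, was at 2.25, *Cited1*, a transcriptional cofactor, at 1.10 and *Gja5*, the connexin of trabeculae and fast conduction, at 0.51.

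*Nppa* and *Gja5* are known to be activated by *Tbx5* and repressed by *Tbx2* and *Tbx3*. In these libraries they were higher together with *Tbx5* and with *Tbx3*. *Atp2a2*, the calcium pump of the sarcoplasmic reticulum, fell by 0.90 on the log2 scale, and *Mycn*, a growth gene that *Tbx2* represses, fell by 0.62. With the atrial covariate 5 of the 12 targets were called as higher and 1 as lower, and *Mycn* was no longer called (-0.46, adjusted p = 0.0823 by edgeR).

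Among partners of the T-box factors, 2 of 13 tested genes were called as higher and 4 as lower, with a median of -0.08, beside 15.9% and 12.8% of all genes. *Gata5*, a factor of the endocardium and epicardium, was higher at 1.45, and *Gata6*, its relative of the myocardium, was lower at -0.43. *Gata4*, the partner of *Tbx5* at chamber genes, was at -0.05 (adjusted p = 0.493 by edgeR), and was called as lower, at -0.16 (adjusted p = 0.049), with the offset for GC content and transcript length together with the replicate block. The count of 6 called partners was 3 without *Nrg1GOF* 2 or without WT 4, where 20.4% and 22.2% of all genes were called. It was 3 and 4 with WT libraries 1 and 2 or 3 and 4 alone (18.6% and 27.7% of all genes), and 2 with each WT pair summed (15.3%). With the atrial covariate it was 1 (7.95% of all genes), and *Gata5* was not called. Scaled by the 7 cardiomyocyte genes, 3 were higher and 1 lower, with a median of 0.03, beside 20.4% and 5.07% of all genes under that scaling.

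Of 10 genes of the ventricular conduction system, which *Tbx5* and *Tbx3* help to form, 5 were called as higher and 3 as lower (median 0.38). *Cntn2*, a marker of the Purkinje fibres, stood at 3.86, 2.38, 4.15 and 4.50 CPM in *Nrg1GOF* and at 1.53, 1.53, 0.162 and 0.164 CPM in WT, so the WT pairs lay far apart. Its log2 fold change was 1.26 against WT libraries 1 and 2 alone and 4.45 against WT libraries 3 and 4 alone. With all libraries it was 2.14 (adjusted p = 0.0272 by edgeR), a call that was lost without *Nrg1GOF* 1 (2.12, adjusted p = 0.0612), *Nrg1GOF* 3 (2.08, adjusted p = 0.0584) or *Nrg1GOF* 4 (2.07, adjusted p = 0.0562), with each WT pair summed (adjusted p = 0.080) and with the atrial covariate (1.12, adjusted p = 0.468). *Irx3*, which controls gap junction genes in the bundle branches, was at 1.39 and *Id2*, a target of *Tbx5* in the conduction system, at 0.74, whereas the homeobox gene *Prox1* fell by 0.64 on the log2 scale. *Gja5* and *Id2* are among the genes that this list shares with the chamber targets. With each WT pair summed 4 of these conduction genes were higher and 1 lower, beside 9.59% and 5.67% of all genes in that fit. Of 8 tested genes of the *Tbx1* pathway, 2 were called as higher, *Foxc1* and *Foxc2*, and 0 as lower (median 0.21, 4 at an unadjusted p under 0.05), beside 15.9% of all genes called as higher and 12.8% as lower. *Foxc2*, a forkhead factor, was at 1.00.

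Markers of the cells that carry *Tbx18* moved in unlike ways. In the epicardium, 7 of 10 markers were called as higher and 0 as lower by edgeR (7 at an unadjusted p under 0.05), with a median of 0.67. *Tcf21* was at 1.26, *Krt19* at 1.25 and *Upk1b* at 0.84, and their summed level with the other markers was 251 to 298 CPM in *Nrg1GOF* and 145 to 199 CPM in WT. *Tbx18*, at -0.33, thus went the other way from the 7 called markers, whereas 3 of the 10 were not called. With the atrial covariate 3 of 10 were called as higher, and *Upk1b* was no longer among them (0.83, adjusted p = 0.0941 by edgeR).

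Of 9 markers of mural and smooth muscle cells, 3 were called as higher and 3 as lower, with a median of -0.19, beside 15.9% and 12.8% of all genes. The largest change was that of the contractile gene *Tagln*, which was higher at 1.20 (adjusted p = 0.00313 by edgeR), and at 0.79 and 1.77 against WT libraries 1 and 2 or 3 and 4 alone. *Acta2*, also contractile, fell by 0.70 on the log2 scale and the pericyte gene *Rgs5* by 0.59. The other calls were smaller, at 0.29, 0.20 and -0.33. The summed level of the list was 1338 to 1424 CPM in *Nrg1GOF* and 1639 to 1905 CPM in WT, of which *Acta2* alone made up 666 ± 51.2 and 1084 ± 67.3 CPM (SD, n = 4 each). With the atrial covariate 0 markers were called as higher, *Tagln* (0.60) included, and 3 as lower. Whether the lower level of *Tbx18* came from mural cells was not tested.

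**Figure D5:**
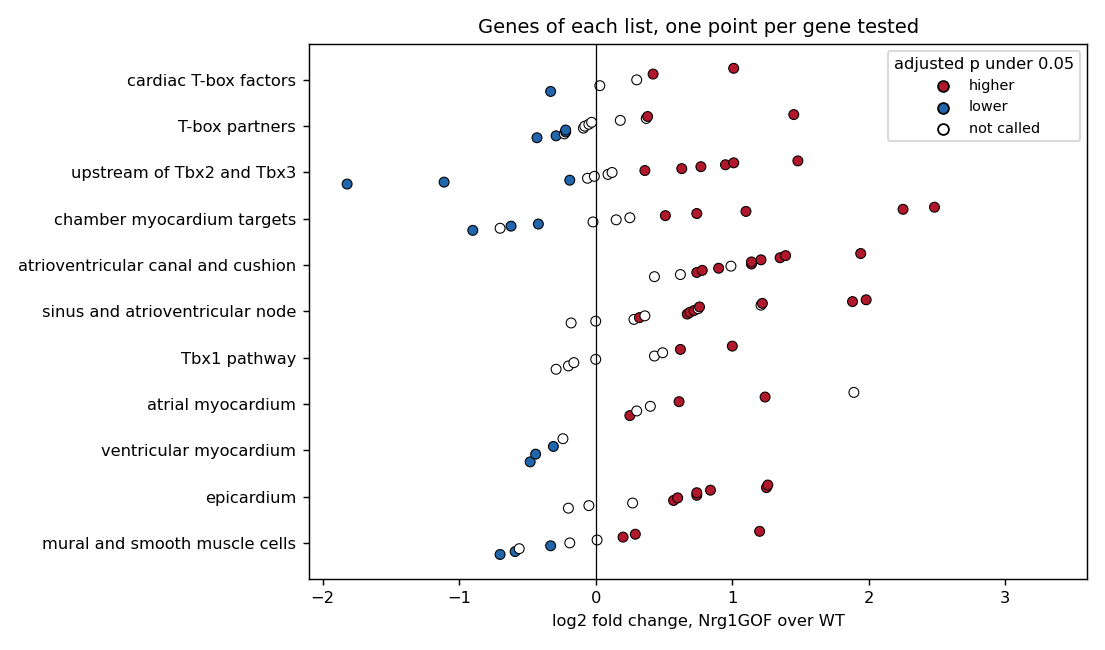
Log2 fold change of *Nrg1GOF* over WT for each tested gene of the T-box factors and of 10 gene lists, one point per gene, filled where the adjusted p was under 0.05. The canal and node lists lie mostly to the right, with medians of 1.07 and 0.70, the epicardial list has a median of 0.67, and the ventricular myocardial markers lie to the left, with a median of -0.37.

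Of 11 other T-box genes, *Mga* alone passed the filter on low counts. It encodes a factor that joins a T-box with a second DNA-binding domain and was at 0.05 (adjusted p = 0.881 by edgeR, also unadjusted p = 0.80). With WT libraries 3 and 4 alone as the control it was called as higher at 0.44. The other genes held at most 24 counts in any library, and 4 of them, *Tbx10*, *Tbx19*, *Tbx21* and *Eomes*, stayed under 3 counts in every library.

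The genes whose pattern over the 8 libraries was most like that of each tested member were found among 13047 genes, by the root mean square difference of log2 CPM relative to the WT mean. *Tbx3* was closest to *Postn*, the periostin gene of cushion mesenchyme and 1 of the canal genes (0.135), and to *Pirt* (0.138). *Tbx5* was closest to *Sept5* (0.0583) and *Itprid2* (0.0612). *Tbx18* was closest to *Sart3* (0.0432) and *Nfrkb* (0.0437), *Tbx2* to *Mapk7* (0.0445) and *Xkr6* (0.0787), and *Tbx20* to *Notch3* (0.0613) and *Cdk6* (0.0655). All of these distances are small differences of log2 levels, and *Tbx3* had the least close neighbours of the 5.

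Several of the genes named here, *Nrg1*, *Nppa*, *Gja5*, *Atp2a2*, *Gata5*, *Gata6*, *Bmp5*, *Has2*, *Hapln1*, *Shox2*, *Cacna2d2*, *Irx3*, *Prox1*, *Tcf21*, *Tagln*, *Pirt* and *Sart3*, overlap an annotated gene on the opposite strand. The strand setting of the counting is not given in the sources used here, so reads of the overlapping genes could have been shared.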

How the data were processed

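Poly(A) RNA of 4 *Nrg1GOF* and 4 WT ventricle samples was sequenced with directional libraries and single reads of 60 bases. The authors deposited expected counts per gene, not scaled for depth or length, built on GRCm38 and, going by the name of the table, on Ensembl release 91. The submitters' processing notes name cutadapt and RSEM 1.3.1. The aligner and strand setting are not given in the sources used here. Values that were not whole made up 8.4% to 13.2% per library, and all values were rounded.

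Genes were kept with filterByExpr of edgeR (4.0.16, R 4.3.3), scaled by TMM and compared with the quasi-likelihood F-test, genotype as the sole term, two-sided, with Benjamini-Hochberg adjustment over 15580 genes. The test was tested on simulated counts for these 15580 genes. It recovered 24 of 66 genes changed by 0.5 on the log2 scale, 48 of 63 changed by 1 and 68 of 71 changed by 2, with 9 false calls. It made 0 calls with no gene changed. The share of genes changed was far below the 28.7% called in the data, so these rates need not hold there. Pair ratios used counts plus 0.5 and an exact permutation test (SciPy 1.17.1). Coordinates and exon lengths came from the GENCODE annotation of GRCm38 and promoters from RefSeq.

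All 6 members were named in full. From 16 gene lists (8 of pathways and 8 of cell types), called genes were named from the largest change down, at most 4 a list, and *Gja5*, *Mycn*, *Gata4* and *Foxc1* because a sentence turns on them. Some neighbours of members, *Nrg1* and the 2 most similar genes of each tested member with an average log2 CPM of at least 1 were also named. Members and lists were chosen with earlier results of these data known.

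Alternatives were the likelihood ratio test, DESeq2 (1.42.0), 3 other scalings, 2 other filters, unrounded counts, the replicate block, an offset for GC content and length with and without the block, thinning to the smallest library, WT pairs summed or alone, a covariate of 6 atrial genes, stricter thresholds and each library left out. Scaling by 7 cardiomyocyte genes and the longest transcript length were chosen after seeing the data.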

Additional observations from a re-analysis of the deposited data

Results flagged for a closer look

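In 126 groups of 4 values, 5 had 1 library whose gap to the nearest of the others exceeded Dixon's 95% critical value, where chance gives about 1 group in 20 (6.3 here). The total of *Nrg1GOF* library 4 was 8038641 counts, against 20578081 to 22547833 in the other 3. *Tbx1* in WT library 1 was at 0.382 CPM, above 0.324 to 0.328 in the others, a gap of a few counts. *Gata6* in *Nrg1GOF* library 1 was at 165 CPM, below 176 to 178. *Mycn* in *Nrg1GOF* library 4 was at 33.3 CPM, above 24.1 to 24.9. *Sox9* in *Nrg1GOF* library 3 was at 51.3 CPM, above 30.8 to 32.0.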

How the results depend on the processing

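The count of 3 called members was 3 under every removal of 1 library (3 to 3), 1 with a log2 change of at least 1 required (*Tbx3*), 2 at an adjusted p under 0.01 and 0 with the atrial covariate. All genes called numbered 4467, and 3239 to 4261 with 1 library left out, 2464 with WT pairs summed, 1238 with the atrial covariate, 2535 at an adjusted p under 0.01 and 724 with a log2 change of at least 1. Of all calls 55.4% were higher, against 65.4% with the library total alone, 80.1% with scaling by 7 cardiomyocyte genes (which shifted the median of all genes by 0.11), and 44.0% with the GC and length offset. *Tbx20* reversed to -0.02 with that offset, with or without the block, to -0.17 with WT libraries 1 and 2 alone and to -0.38 with the atrial covariate, and ran from -0.04 to 0.11 with 1 library left out, negative without *Nrg1GOF* 1 or 3 or WT 3 or 4. *Mga* reversed to -0.01 with the offset, with or without the block, to -0.26 with WT libraries 1 and 2 alone and to -0.40 with the atrial covariate, and ran from -0.08 to 0.21 with 1 library left out. *Gata4* reversed to 0.06 with cardiomyocyte scaling and was called, at -0.16, with the offset and the block. The causes were not tested.

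Whether the replicate numbers pair the samples is not known. Same-numbered libraries correlated at 0.049 to 0.199 (mean 0.111) in their deviations from the group means, not all above 0.1. Libraries with unlike numbers correlated at -0.263 to 0.187. This check cannot decide on pairing by replicate number. With the number as a block 4 members were called, *Tbx2* being added at 0.29 (adjusted p = 0.0431 by edgeR), and 4524 genes in all, but with the GC and length offset and the block together *Tbx2* was at 0.15 and not called (adjusted p = 0.226). With the block, an exact test by sign flips of the 5 pair ratios could not go below p = 0.125. In all 12 alternatives each of the 5 pair ratios kept its sign and none passed after adjustment. With 1 library left out, though, an exact permutation p cannot go below 0.0571. Depth limits *Tbx1* and the lowest T-box genes, as 3 counts in *Nrg1GOF* library 4 correspond to 0.375 CPM.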

Other observations

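Cell types beside those of *Tbx18* were followed by counts of edgeR calls. Of 8 endothelial and endocardial markers 6 were called as higher and 0 as lower (6 at an unadjusted p under 0.05), with a median log2 fold change of 0.41 and summed levels of 1188 to 1314 CPM in *Nrg1GOF* against 1025 to 1058 CPM in WT. Of 6 atrial markers 3 were called as higher and 0 as lower (5 at an unadjusted p under 0.05, median 0.50), and *Myl7*, the atrial myosin light chain, was at 1.24. Of 4 ventricular markers 3 were called as lower and 0 as higher (median -0.37), and of 7 markers of all cardiomyocytes 4 were called as lower and 0 as higher (median -0.32). The last count was 2 without *Nrg1GOF* 1, *Nrg1GOF* 2, WT 3 or WT 4. That of the ventricular markers ran from 0 to 4 over the alternatives, in which the share of all genes called differed too.

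Of 8 genes of red blood cells 0 were called by edgeR and 0 by DESeq2, and 0 had an unadjusted p under 0.05. Their summed level was 13030 and 12188 CPM in WT libraries 1 and 2 and 5503 and 4419 CPM in WT libraries 3 and 4, against 5435 to 8901 CPM in *Nrg1GOF*. With WT libraries 1 and 2 alone as the control 5 were called as lower, where 18.6% of all genes were called in either direction. With WT libraries 3 and 4 alone 3 were called as higher, where 27.7% of all genes were called in either direction. Of 6 genes of the embryonic lung 1 passed the filter and 0 were called by edgeR or DESeq2 (0 at an unadjusted p under 0.05), and *Sftpc* stayed under 3 counts in every library.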
